A study of Rattus norvegicus with 4 samples.

Results

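The cell cycle and DNA replication genes were a list of 44 genes chosen by name. They encode the replication helicase and nucleotide supply, the G1 and S phase cyclins and kinases, the mitotic kinases and cyclins, and the proteins of the chromosomes, spindle and cytokinesis. Of the 44, 42 had a probe set annotated to that gene alone, among 14217 such genes on the array, and the brightest probe set of a gene gave its value. Rrm2, a subunit of ribonucleotide reductase, and Hmgb2, a chromatin protein, had no singly named probe set and were not analysed here. A further division was made by signal: 23 of the 42 genes had a mean intensity above 62.75, which is the array-wide median with control probe sets left out, and the remaining 19 are called dim.

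CA3, a pyramidal cell field of the hippocampus, was taken from Sprague-Dawley rats 24 h after an injection into the hippocampus. The 4 groups received kainic acid (KA) together with the peptide NAP, KA alone, NAP alone, or phosphate-buffered saline (PBS) as the vehicle. Kainic acid is an agonist of kainate-type glutamate receptors that overexcites and kills CA3 neurons, and NAP is a peptide cut from activity-dependent neuroprotective protein. Each group had 1 Affymetrix array, and the labels do not say whether an array held RNA of 1 animal or of a pool. There was therefore no replicate error, no test between groups was possible, and the design allows no statement on whether a difference exceeds the spread between animals. A gene is called at least 2-fold higher or lower where its values of log2(intensity + 10) differed by 1 or more, which is a rule of size.

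A dividing cell passes through G1, DNA synthesis, G2 and mitosis. Cyclin D with Cdk4 starts the cycle, E2F factors then switch on the genes of DNA synthesis, and a later wave of transcription supplies Cdk1, cyclins A and B and the spindle proteins. In the adult hippocampus most neurons no longer divide. Microglia, oligodendrocyte precursors, vascular cells and the stem cells of the dentate gyrus keep the ability to do so. The transcripts of the cycle are known to be scarce in such tissue, and a change in their level in bulk RNA can come from the number of dividing cells or from the amount of RNA per cell, which cannot be told apart here.

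Promoters are shown first, because the genes of DNA synthesis and those of mitosis are known to differ in the elements that time their transcription. Genes of DNA synthesis carry E2F elements. Many mitotic genes carry boxes bound by the factor NF-Y with a cell cycle homology region (CHR), an element bound by the DREAM complex and its relatives. The 6 genes below had large differences between arrays. The sequences are the 250 bases before the gene's start in RefSeq (build GRCr8), written 5′ to 3′ along the gene, and capitals mark every match on either strand. The E2F motif was searched as TTCGCGC, in a variant spelled TTGGCGC, in another variant spelled TTCCCGC, and in the remaining variant spelled TTGCCGC. The NF-Y box was searched as CCAAT. The CHR was searched as TTTGAA, with the alternative spelling TTTAAA.
Mcm5 (chr19:13488563-13488812, plus strand): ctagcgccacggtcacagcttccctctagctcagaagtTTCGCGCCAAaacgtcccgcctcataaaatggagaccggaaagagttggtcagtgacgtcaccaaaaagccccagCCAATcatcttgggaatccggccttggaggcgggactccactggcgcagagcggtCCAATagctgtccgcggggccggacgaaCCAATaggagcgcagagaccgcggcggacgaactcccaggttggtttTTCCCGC
Mcm6 (chr13:42404353-42404602, minus strand): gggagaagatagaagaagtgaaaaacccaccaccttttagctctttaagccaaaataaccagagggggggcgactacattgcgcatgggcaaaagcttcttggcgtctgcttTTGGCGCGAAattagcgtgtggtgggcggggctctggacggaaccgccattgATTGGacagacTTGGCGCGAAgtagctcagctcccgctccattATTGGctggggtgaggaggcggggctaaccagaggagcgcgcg
Mki67 (chr1:199952594-199952843, minus strand): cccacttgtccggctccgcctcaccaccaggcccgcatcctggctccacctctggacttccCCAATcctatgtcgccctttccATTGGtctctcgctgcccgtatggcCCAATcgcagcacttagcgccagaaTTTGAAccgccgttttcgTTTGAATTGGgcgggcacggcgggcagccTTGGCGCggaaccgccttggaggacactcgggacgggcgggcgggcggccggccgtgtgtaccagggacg
Top2a (chr10:84473094-84473343, minus strand): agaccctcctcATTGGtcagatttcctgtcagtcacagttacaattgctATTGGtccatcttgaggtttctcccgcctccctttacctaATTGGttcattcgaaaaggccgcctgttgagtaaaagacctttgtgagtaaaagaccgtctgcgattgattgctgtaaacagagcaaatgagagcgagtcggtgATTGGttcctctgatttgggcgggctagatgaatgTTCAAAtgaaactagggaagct
Cdk1 (chr20:19265043-19265292, plus strand): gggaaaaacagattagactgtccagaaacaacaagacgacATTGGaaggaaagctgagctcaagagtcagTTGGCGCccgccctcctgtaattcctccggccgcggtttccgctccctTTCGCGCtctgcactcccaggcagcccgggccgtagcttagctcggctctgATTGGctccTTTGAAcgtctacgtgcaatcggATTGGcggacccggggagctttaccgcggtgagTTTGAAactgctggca
Cks2 (chr17:13727520-13727769, minus strand): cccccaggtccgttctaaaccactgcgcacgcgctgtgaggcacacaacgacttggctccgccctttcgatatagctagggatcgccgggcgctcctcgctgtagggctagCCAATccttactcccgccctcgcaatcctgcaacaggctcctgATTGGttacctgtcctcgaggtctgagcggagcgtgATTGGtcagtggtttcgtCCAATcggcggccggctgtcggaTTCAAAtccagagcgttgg

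The upstream stretches of Mcm5 and Mcm6, both subunits of the replication helicase, held 3 and 4 E2F matches beside 3 and 2 NF-Y boxes, and neither had a CHR. Pairs of E2F matches on opposite strands overlap in both stretches. The stretch of Cks2, which encodes a small partner of Cdk1, held 4 NF-Y boxes and 1 CHR with no E2F match, and so did that of Top2a, the gene of DNA topoisomerase II alpha. Cdk1, which encodes the kinase that drives mitosis, had 2 E2F matches, 3 NF-Y boxes and 2 CHR. The stretch of Mki67, which encodes the proliferation antigen Ki-67, had 1, 4 and 2, and 1 of its CHR shares bases with an NF-Y box.

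Promoters from 250 bases before to 50 after the start were held for 36 of the 44 genes. An E2F match stood in 9 of 11 replication promoters, 1 of 3 G1 and S phase promoters, 2 of 12 mitotic kinase and cyclin promoters and 3 of 10 chromosome and spindle promoters. It stood in 9.52% of all 33469 promoters of the table and in 11.7% of those of protein-coding genes. A CHR match stood in 2 of 11, 1 of 3, 11 of 12 and 10 of 10 promoters of the same roles, against 28.3% of all promoters. NF-Y boxes stood in 7 of 11, 1 of 3, 9 of 12 and 10 of 10, against 37.5% of all promoters. A box and a CHR together stood in 18 of the 36 promoters and in 11.3% of all promoters. A match is a description of the letters and does not show that a factor binds there.

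**Figure D1:**
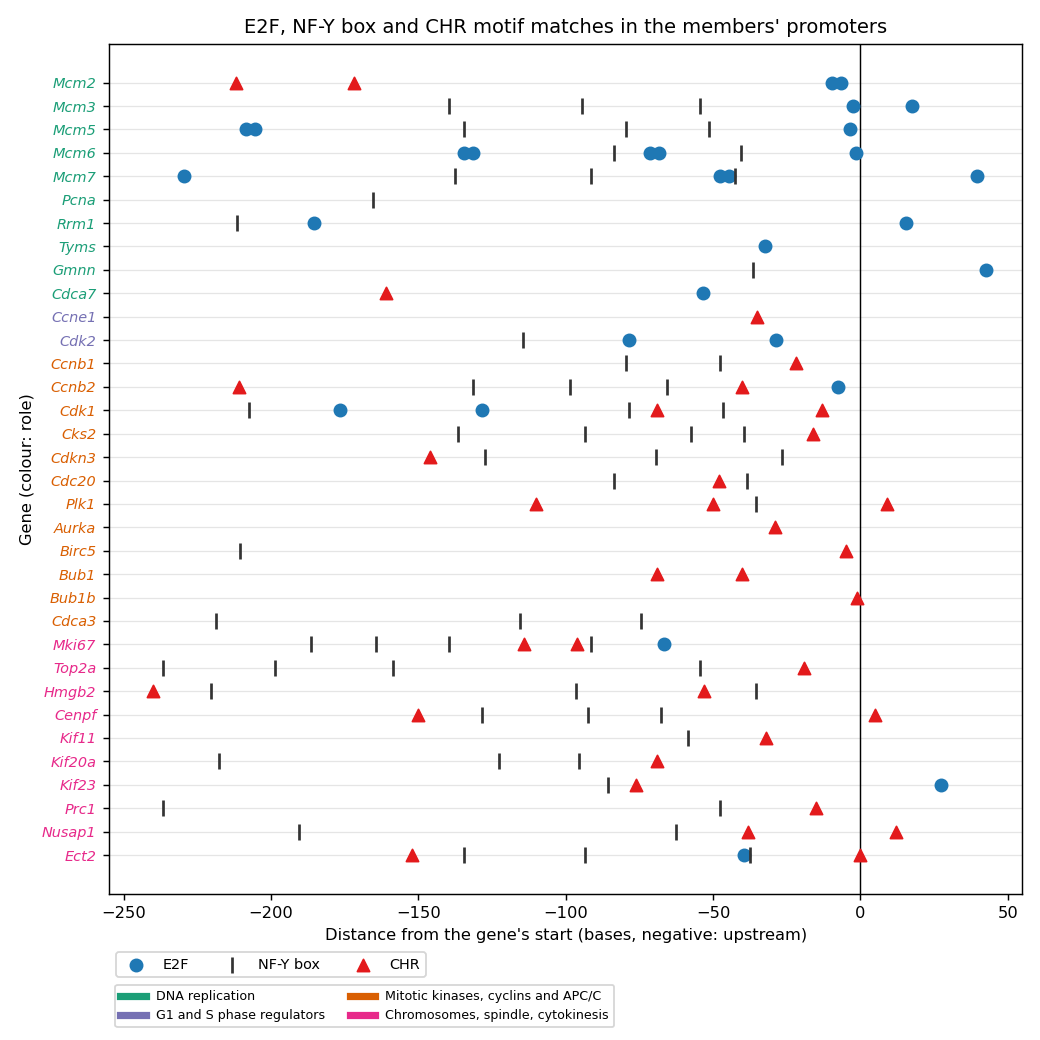
Positions of E2F, NF-Y box and CHR matches in the promoters of the 34 cell cycle genes with at least 1 match, as distance in bases from the gene's start (x axis), with genes in rows coloured by role. E2F matches crowd in the replication genes at the top, and CHR matches fall mostly within 100 bases of the start in the mitotic genes below.

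Across the arrays the cell cycle genes were highest after KA+NAP and lowest after PBS. Among the 23 genes past the filter, 21 had their highest intensity on the KA+NAP array, against 32.2% of all 9489 genes past the filter. The same 21 had their lowest intensity on the PBS array, against 29.8% of all genes for the lowest value alone and 16.8% for both, and 20 of them followed the full order of KA+NAP, KA, NAP and PBS. Ccnd2 and Ccne1, which encode cyclins D2 and E1, had neither extreme there, and Prc1, a spindle midzone protein, left the full order by a slightly higher value on the NAP than on the KA array. Of the 19 dim genes, 17 were highest on the KA+NAP array, against 27.3% of all 4728 dim genes, 15 were lowest on the PBS array, against 22.6%, and 14 were both, against 10.5%. The filter acts on the mean over the arrays, so a gene can pass it through high values on the KA-treated arrays. This applies to 9 of the 23 genes, whose mean over the NAP and PBS arrays was at or under 62.75, namely Mcm3, Mcm5, Tk1, Gmnn, Cdk1, Cks2, Cdca3, Mki67 and Top2a. For 5 of them (Tk1, Cdk1, Cks2, Cdca3 and Mki67) the mean without the KA+NAP array was also at or under it.

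**Figure D2:**
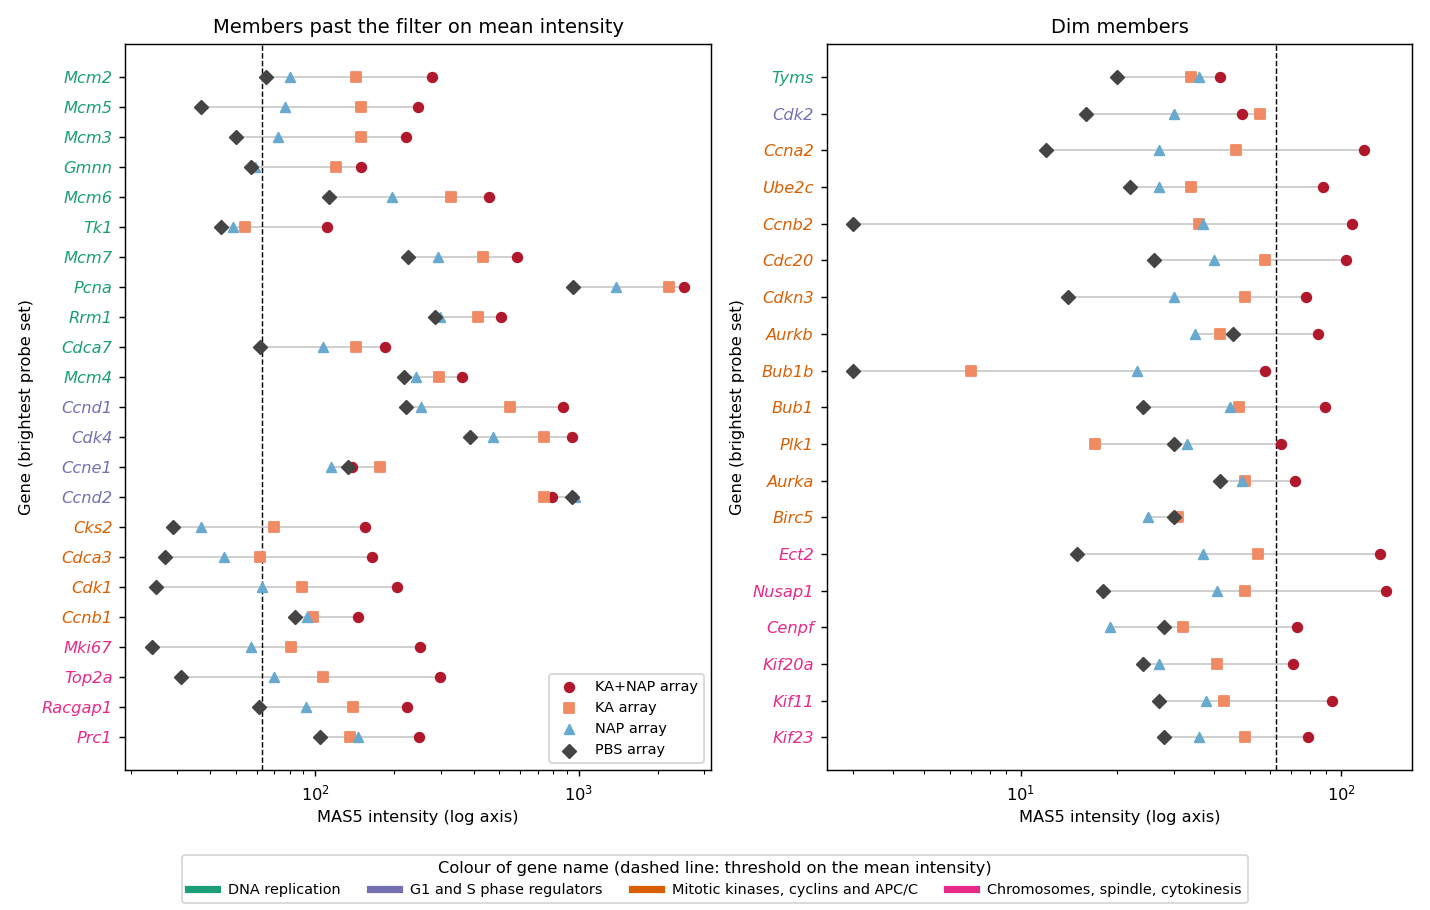
MAS5 intensity (log x axis) of each cell cycle gene on the KA+NAP, KA, NAP and PBS arrays, 1 array per group, for the 23 genes past the filter (left) and the 19 dim genes (right). The dashed line is the threshold of 62.75 on the mean intensity. In most rows the KA+NAP array lies farthest right and the PBS array farthest left, while Ccnd2 and Ccne1 do not follow that order.

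The helicase genes Mcm2 to Mcm7, whose products form the ring that unwinds DNA at replication forks, were higher on both KA-treated arrays. Mcm5 (probe set 1376055_at) had an intensity of 246 on the KA+NAP array, 150 on the KA array, 77 on the NAP array and 37 on the PBS array. Mcm2 (1374036_at) stood at 277, 143, 80 and 65 on the same arrays, and Mcm3 (1372406_at) at 222, 149, 72 and 50. For these genes both KA-treated arrays lay above both arrays without KA. Mcm6 (1371074_a_at) had 459 on the KA+NAP array, 328 on the KA array, 196 on the NAP array and 113 on the PBS array, Mcm7 (1388744_at) had 586, 433, 293 and 226, and Mcm4 (1373557_at) had 362, 294, 241 and 218. The log2 difference of KA minus PBS was 1.77 for Mcm5, 1.46 for Mcm6, 1.41 for Mcm3, 1.03 for Mcm2, 0.91 for Mcm7 and 0.42 for Mcm4, so the subunits of one ring were not shifted equally. In KA+NAP minus NAP, Mcm2 had the largest difference of the 6 at 1.67 and Mcm4 the smallest at 0.57.

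Pcna, the sliding clamp that holds the polymerase on DNA, was the brightest of the 42 genes on all 4 arrays. Its intensity (1367671_at) was 2519 on the KA+NAP array, 2202 on the KA array, 1388 on the NAP array and 955 on the PBS array. The log2 difference was 1.20 in KA minus PBS and 0.86 in KA+NAP minus NAP. Cdca7, a gene of the Myc and E2F programmes, stood at 184, 143, 107 and 62 in the order KA+NAP, KA, NAP and PBS, and Gmnn, which encodes the licensing inhibitor geminin, at 149, 120, 59 and 57. Gmnn had nearly the same value on both arrays without KA, while Cdca7 differed between them by 0.70. The second probe set of Gmnn was dim, with 8, 5, 3 and 10. With the mean of both probe sets of Gmnn, KA+NAP minus NAP went from 1.20 to 0.84 and was no longer 2-fold.

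The enzymes that supply DNA precursors were divided. Rrm1, the large subunit of ribonucleotide reductase, stood at 506 on the KA+NAP array, 416 on the KA array, 298 on the NAP array and 285 on the PBS array. Tk1, thymidine kinase 1 (1372631_at), had 111, 54, 49 and 44 on these arrays, so that only the KA+NAP array stood apart in this probe set. Its log2 difference was 1.04 in KA+NAP minus NAP and 0.25 in KA minus PBS. The other probe sets of Tk1 were under the threshold, with 65, 29, 46 and 24 for 1389858_at and 21, 2, 10 and 1 for 1397872_at. In both of these the NAP array stood above the KA array. With the mean of all its probe sets, KA+NAP minus NAP was 0.70 and no longer 2-fold. Tyms, thymidylate synthase, was dim at 42, 34, 36 and 20. Of the 12 replication genes on the array, 6 were at least 2-fold higher in each KA comparison. The shares of all genes on the array were 5.31% in KA minus PBS and 6.34% in KA+NAP minus NAP. In both comparisons 4 genes (Mcm2, Mcm3, Mcm5 and Mcm6) were so, against 3.13% of all genes past the filter.

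The D cyclins, which receive mitogen signals in G1, went different ways. Ccnd1, encoding cyclin D1, had an intensity (1371643_at) of 873 on the KA+NAP array, 551 on the KA array, 252 on the NAP array and 221 on the PBS array. Ccnd2 (1370810_at) had 793, 742, 967 and 940 and was the single gene past the filter to lie lower in both KA comparisons, at −0.34 in KA minus PBS and −0.28 in KA+NAP minus NAP. For Ccnd1 those log2 differences were 1.28 and 1.75. Its other probe sets ran the same way in size order, with 1.65 and 2.33 for 1383075_at and 0.29 and 1.17 for 1371150_at.

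Cdk4, the kinase partner of the D cyclins, stood at 945 on the KA+NAP array, 742 on the KA array, 473 on the NAP array and 386 on the PBS array, with log2 differences of 0.98 in KA+NAP minus NAP and 0.93 in KA minus PBS, just short of 2-fold. Ccne1, encoding the cyclin that drives entry into DNA synthesis, had 138, 176, 115 and 133 and was highest on the KA array. Its partner Cdk2 was dim at 49, 56, 30 and 16, again with the highest value on the KA array. The signals of Ccne1 and the dim Cdk2 were therefore not ordered like those of the helicase genes, while that of Cdk4 was. Ccne2, encoding cyclin E2 and taken from the other pathway genes, had 215, 176, 140 and 142 and was highest on the KA+NAP array.

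Past the filter, 3 of 4 genes of the mitotic engine were at least 2-fold higher in KA+NAP minus KA, against 1.52% of all genes. Cdk1 (1367776_at) had an intensity of 205 on the KA+NAP array, 89 on the KA array, 63 on the NAP array and 25 on the PBS array. Cks2 (1373823_at) had 154, 70, 37 and 29, and Cdca3 (1374449_at), which encodes a trigger of mitotic entry, had 165, 62, 45 and 27. In these genes the KA+NAP array was more than 2-fold above the KA array on the log2(intensity + 10) scale, by 1.12, 1.04 and 1.28. Each had a mean without the KA+NAP array at or under 62.75, so a high KA+NAP value was partly built into its choice. Ccnb1, encoding cyclin B1, was above the threshold without KA and differed less, with 146, 98, 93 and 84. Its KA+NAP minus KA difference was 0.53. Its second probe set was dim and had 30, 31, 26 and 10.

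The remaining 11 genes of this group were dim, and 10 of them were highest on the KA+NAP array. Ccna2 (cyclin A2) had an intensity of 118 on the KA+NAP array, 47 on the KA array, 27 on the NAP array and 12 on the PBS array. Ccnb2 (cyclin B2) stood at 108, 36, 37 and 3, and Cdc20, the activator of the anaphase-promoting complex, at 104, 58, 40 and 26. Values of 10 or less, such as that of Ccnb2 on the PBS array, lie at the level of the pseudocount, so the size of their differences depends on it. Ube2c, the ubiquitin-conjugating enzyme of the same complex, had 88 on the KA+NAP array, 34 on the KA array, 27 on the NAP array and 22 on the PBS array. The phosphatase gene Cdkn3 had 78, 50, 30 and 14.

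The mitotic kinases and the spindle checkpoint were near the lower end of the array's range. Plk1, polo-like kinase 1, had an intensity of 65 on the KA+NAP array, 17 on the KA array, 33 on the NAP array and 30 on the PBS array, so the KA array was its lowest. Aurkb, aurora kinase B, had 85, 42, 35 and 46, and Aurka, aurora kinase A, had 72, 50, 49 and 42. Among these kinases the KA+NAP array alone stood apart. The checkpoint genes Bub1 and Bub1b had 89, 48, 45 and 24 and 58, 7, 23 and 3 on the arrays in the same order. Birc5, which encodes survivin, the partner of aurora kinase B, had 30, 31, 25 and 30 and showed no order.

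Among genes of the chromosomes and the spindle, Mki67 and Top2a had the largest KA+NAP minus NAP differences of the list. Mki67 (1374775_at) had an intensity of 250 on the KA+NAP array, 81 on the KA array, 57 on the NAP array and 24 on the PBS array. Top2a (1388650_at) had 298, 107, 70 and 31, and its second, dimmer probe set had 132, 32, 35 and 16. Both genes were about as high above NAP after KA+NAP, at log2 differences of 1.96 and 1.94. In KA+NAP minus KA, Mki67 was at 1.51 and Top2a at 1.40, the largest of the genes past the filter. Racgap1, a regulator of cytokinesis, stood at 224, 139, 92 and 61 on the KA+NAP, KA, NAP and PBS arrays, and Prc1 at 248, 136, 146 and 104.

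Of the 6 dim genes of this group, all were highest on the KA+NAP array. Nusap1, a spindle-associated protein, had an intensity of 138 on the KA+NAP array, 50 on the KA array, 41 on the NAP array and 18 on the PBS array. Ect2, the exchange factor that positions the cleavage furrow, had 132, 55, 37 and 15. The motor genes Kif11, Kif20a and Kif23 reached 94, 71 and 79 on the KA+NAP array, against 27, 24 and 28 on the PBS array. Cenpf, a kinetochore protein, had 73, 32, 19 and 28 in the order KA+NAP, KA, NAP and PBS, with its lowest value on the NAP array.

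KA was set against PBS to describe the toxin alone. Of the 42 genes on the array, 18 were at least 2-fold higher and 0 lower, against 5.31% of all genes higher and 3.14% lower. Of the 23 genes past the filter, 12 were at least 2-fold higher, against 4.91% of all genes past it, and the median log2 difference was 1.03 beside 0.02 over all of them. Among the 14 genes whose NAP and PBS mean was itself above the threshold, 6 were at least 2-fold higher, against 3.68% of all genes so chosen. Of the 19 dim genes 6 were, against 6.11% of dim genes. The PBS array carried much of this count. With the NAP array in its place, an alternative chosen after the data were seen, 1 of the 23 genes and 1 of all 42 was at least 2-fold higher, namely Ccnd1 at 1.10, against 3.18% of genes past the filter and 3.76% of all genes. The median over the 23 genes was then 0.55.

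KA+NAP was set against NAP to describe the toxin in animals that also had the peptide. Here 25 of the 42 genes were at least 2-fold higher and 0 lower, against 6.34% and 3.05% of all genes. Past the filter the count was 13 of 23, against 5.66%, with a median of 1.19 beside 0.03 over all genes. The 14 genes above the threshold on the arrays without KA had 4 at 2-fold (Mcm2, Mcm6, Ccnd1 and Racgap1), against 4.15%, and the 19 dim genes had 12, against 7.72%. With the PBS array in place of the NAP array, 18 of the 23 and 32 of the 42 genes were at least 2-fold higher, against 7.41% and 7.87% of all genes.

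KA minus PBS and KA+NAP minus NAP share no array. Across the 23 genes past the filter these comparisons correlated at Pearson r = 0.81 and Spearman rho = 0.72, as a description, since genes are not independent replicates. Across all 9489 genes past the filter the values were 0.70 and 0.61. Both comparisons were at least 2-fold higher for 10 of the 23 genes, against 3.13% of all genes past the filter. Of these, Mcm3, Mcm5, Cdk1, Cks2, Mki67 and Top2a passed the filter through the KA-treated arrays. A large KA difference was thus partly built into their choice. The others, Mcm2, Mcm6, Ccnd1 and Racgap1, were above the threshold on the arrays without KA. Both comparisons were also at least 2-fold higher for 5 of the 19 dim genes (Ccna2, Ccnb2, Cdkn3, Nusap1 and Ect2), against 2.07% of dim genes. The KA difference was larger with NAP than without it for 18 of the 23 genes, against 50.2% of all genes past the filter, with a median excess of 0.15. Genes that pass the filter through a high KA+NAP value tend to a larger excess by that choice. Among the 14 genes above the threshold without KA, the median excess was 0.06 for the 11 replication and G1 and S phase genes and 0.37 for the 3 mitotic genes.

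**Figure D3:**
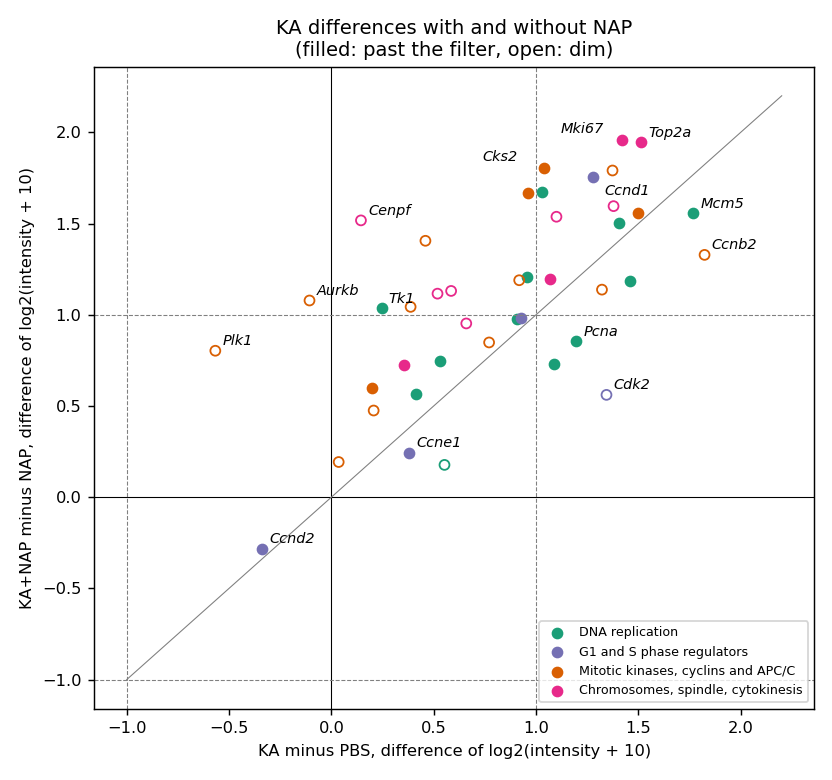
KA+NAP minus NAP (y axis) against KA minus PBS (x axis) for the 42 cell cycle genes, as differences of log2(intensity + 10). Filled points are genes past the filter, open points are dim genes, dashed lines mark 2-fold and the diagonal marks equal differences. Top2a and Mki67 lie above the diagonal at the upper right, Mcm5 below it, Ccnd2 lies below 0 on both axes, and Plk1 and Aurkb lie left of 0 on the x axis alone.

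KA+NAP was set against KA to describe the peptide in injured tissue, and here the calls fell on mitotic genes with low signal on the arrays without KA. Of the 25 mitotic, chromosome and spindle genes on the array, 12 were at least 2-fold higher after KA+NAP, against 2.6% of all genes, while 0 of the 17 replication and G1 and S phase genes were. Past the filter the called genes were Cdk1, Cks2, Cdca3, Mki67 and Top2a, beside 1.52% of all genes past it. All 5 are among the 9 genes that passed through the KA-treated arrays, so their count is a description and no support for a difference between the roles. The 3 mitotic genes that were above the threshold without KA gave no call, with log2 differences of 0.53 for Ccnb1, 0.82 for Prc1 and 0.65 for Racgap1. The 11 replication and G1 and S phase genes above it without KA gave none either, with a median of 0.34. No gene of the list was at least 2-fold lower, against 1.36% of all genes. Most of the mitotic genes were dim, 17 of 25, and 4.78% of all dim genes were at least 2-fold higher in this comparison. Of the 14 genes above the threshold on the arrays without KA, 0 reached 2-fold, against 1.22% of all genes so chosen, with a median of 0.39. This comparison shares the KA array with KA minus PBS and the KA+NAP array with KA+NAP minus NAP.

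NAP was set against PBS to describe the peptide alone. The log2 difference was above 0 for 38 of the 42 genes and 22 of the 23 past the filter, against 54% of all genes past it. At least 2-fold higher were 3 of 42, against 1.89% of all genes, namely Cdk1 at 1.06 and the dim Ccnb2 and Bub1b, each with an intensity of 3 on the PBS array. That is 1 of the 23 genes past the filter, against 1.05%, 2 of the 19 dim genes, against 3.57%, and 0 of the 14 genes above the threshold without KA, against 0.976%. No gene was at least 2-fold lower, against 1.33% of all genes. The median over the 23 genes was 0.36, beside 0.02 over all genes. Mki67 at 0.98, Top2a at 0.96, Mcm5 at 0.89 and Mcm6 at 0.74 were the next highest past the filter. Gmnn, Ccnd2 and Rrm1 were at 0.04, 0.04 and 0.06, so the genes did not shift as a block.

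**Figure D4:**
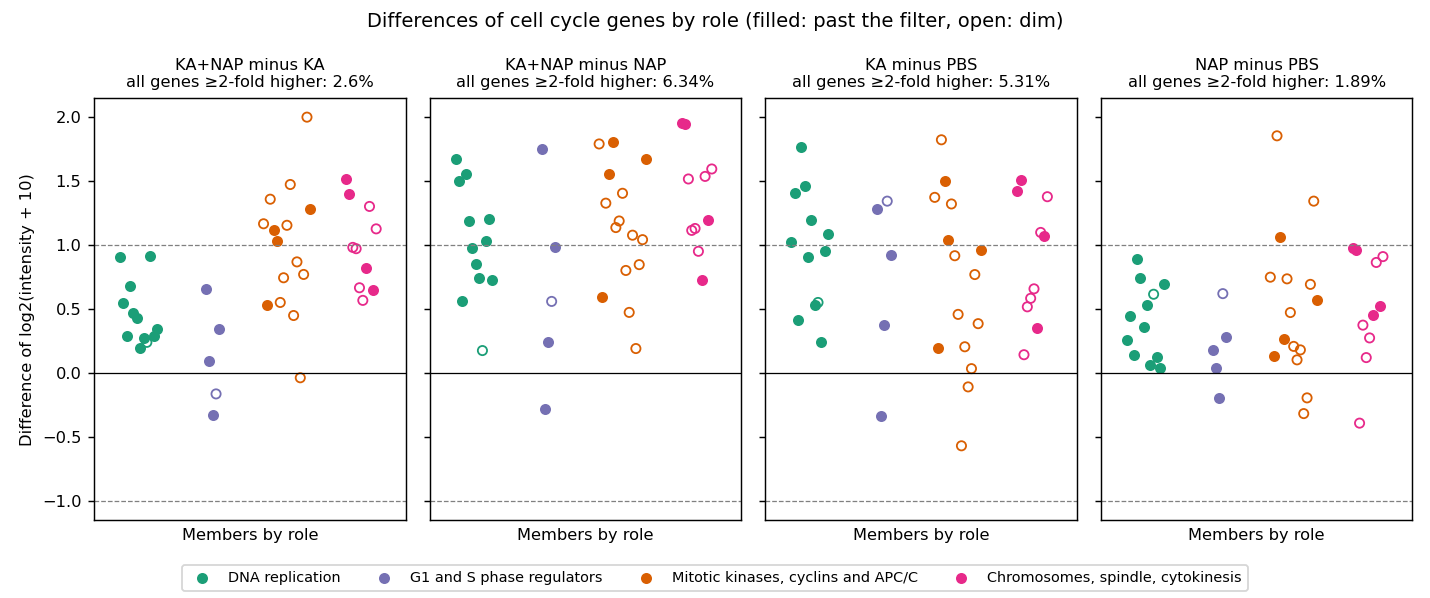
Differences of log2(intensity + 10) for the 42 cell cycle genes, grouped by role, in KA+NAP minus KA, KA+NAP minus NAP, KA minus PBS and NAP minus PBS. Each point is 1 gene (filled past the filter, open dim), dashed lines mark 2-fold, and each panel gives the share of all genes at least 2-fold higher. In KA+NAP minus KA the replication and G1 and S phase genes all lie under 1, while 12 mitotic, chromosome and spindle genes lie above it.

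Other genes of the pathway were taken from 4 further lists with 95 of 110 genes on the array, 62 of them past the filter. In KA minus PBS 8 of the 62 were at least 2-fold higher, against 4.91% of all genes past the filter, and 0 lower. In KA+NAP minus NAP 12 were higher, against 5.66%, and 1 lower, the primase gene Prim1 at −1.27, named here after its value was seen. The medians were 0.30 and 0.48, lower than those of the 23 genes above. In KA+NAP minus KA 2 of the 62, Gins1 at 1.02 and Uhrf1 at 1.08, were at least 2-fold higher, against 1.52%, and in NAP minus PBS 1 was, Cdkn1c, against 1.05%. Gins1 and Uhrf1 had a NAP and PBS mean under 62.75 and passed the filter through the KA-treated arrays. Both genes of KA+NAP minus KA belong to replication, and 0 of the 15 other mitotic genes past the filter reached 2-fold there, with a median of 0.53 beside 0.20 for the 30 other replication genes. Among dim genes, 3 of 18 other mitotic and 1 of 6 other replication genes reached it, against 4.78% of all dim genes.

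Among 30 other replication genes past the filter, Cdt1 and Uhrf1 were at least 2-fold higher in both KA comparisons. Cdt1, which loads the helicase, had an intensity of 186 on the KA+NAP array, 120 on the KA array, 48 on the NAP array and 31 on the PBS array. Uhrf1, which brings DNA methylation to new strands, had 219, 98, 69 and 36. In total, 3 of the 30 were higher in each KA comparison, and Prim1 was lower in 1 of them. The shares of all genes past the filter that were higher were 4.91% in KA minus PBS and 5.66% in KA+NAP minus NAP. Of 15 other mitotic genes past the filter, 2 were at least 2-fold up in KA minus PBS and 6 in KA+NAP minus NAP, against the same shares. Among them Pbk, a mitotic kinase, had 195, 97, 44 and 22 on the KA+NAP, KA, NAP and PBS arrays, and Kif22, a chromosome-arm motor, had 152, 153, 51 and 36. Cdt1, Uhrf1, Pbk and Kif22 each had a NAP and PBS mean under 62.75 and passed the filter through the KA-treated arrays. A large KA difference was therefore partly built into the choice of these genes.

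Among 12 other G1 and S phase regulators past the filter, Rbl1 and E2f5 were at least 2-fold higher in both KA comparisons. Rbl1 encodes p107, a relative of the retinoblastoma protein, and had an intensity of 242 on the KA+NAP array, 155 on the KA array, 94 on the NAP array and 48 on the PBS array. E2f5, a repressor-type E2F factor, had 1049, 877, 455 and 378. E2f1, an activator of the replication genes, was at 144, 118, 109 and 90, and Ccnd3, encoding cyclin D3, at 242, 216, 256 and 233. Foxm1 and Mybl2, activators of the mitotic genes, and the kinase gene Cdk6 were dim, with values of 46, 30, 33 and 32 for Foxm1, 27, 22, 20 and 20 for Mybl2 and 10, 7, 16 and 13 for Cdk6.

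Inhibitors of the cyclin-dependent kinases were measured as well. Cdkn1a, encoding p21, had an intensity of 228 on the KA+NAP array, 303 on the KA array, 106 on the NAP array and 121 on the PBS array, with log2 differences of 1.04 and 1.26 in KA+NAP minus NAP and KA minus PBS. It was highest on the KA array, as were Ccne1, Cdk2, Birc5 and Kif22. Cdkn1b, encoding p27, had 1132, 1073, 1251 and 1011, and Cdkn1c, encoding p57, had 424, 480, 501 and 240, with the PBS array alone low.

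Summed over each list, the markers of some cell types that could hold dividing cells were, like these genes, highest on the KA+NAP array. Over the 4 roles together the summed intensity of the 42 genes was 11633 on the KA+NAP array, 8206 on the KA array, 5905 on the NAP array and 4605 on the PBS array. The 6 infiltrating myeloid markers on the array (of 7 listed) summed to 6489, 3415, 3743 and 1602. The lysozyme gene Lyz2 alone gave 5292, 2757, 3483 and 1410 of this, and the other 5 summed to 1197, 658, 260 and 192, which turns the order of the KA and NAP arrays. Of these markers, 4 of the 5 past the filter were at least 2-fold higher in KA+NAP minus NAP, against 5.66% of all genes past it. In KA minus PBS 3 were, against 4.91%, and in KA+NAP minus KA 3 were, against 1.52%. S100a8, S100a9 and Mmp9 had a NAP and PBS mean under 62.75 and passed the filter through the KA-treated arrays. A large KA difference was thus partly built into the choice of these markers. Mmp9, at 159, 233, 36 and 39, was highest on the KA array. The 12 microglia and macrophage markers summed to 4421, 2247, 2952 and 2645, and without P2ry12 to 4053, 2015, 2179 and 1574. Of the 11 past the filter, 6 were at least 2-fold higher in KA+NAP minus KA, against 1.52% of all genes past it. The oxidase subunit Cybb led them at 2.03. In KA minus PBS 4 of the 11 were at least 2-fold higher and 2 lower, against 4.91% and 2.39%. In KA+NAP minus NAP 5 were higher and 1 lower, against 5.66% and 2.41%. The lysosomal marker Cd68, at 244, 74, 69 and 24, followed the order of the mitotic genes, whereas the microglial receptor P2ry12, at 368, 232, 773 and 1071, was lower on both KA-treated arrays. Cd68 too had a NAP and PBS mean under 62.75 and passed the filter through the KA-treated arrays.

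The 7 reactive astrocyte markers on the array (of 8 listed) summed to 20168 on the KA+NAP array, 15126 on the KA array, 11263 on the NAP array and 6996 on the PBS array. All 7 were past the filter, and 5 were at least 2-fold higher in each KA comparison. The shares of all genes past the filter were 4.91% in KA minus PBS and 5.66% in KA+NAP minus NAP. In KA+NAP minus KA only 1 of the 7 was, Lcn2 at 2.48, against 1.52%. Nes and Serpina3n had a NAP and PBS mean under 62.75 and passed the filter through the KA-treated arrays. Nes (nestin), a filament of reactive and immature cells, stood at 560, 292, 48 and 55. The 7 endothelial markers summed to 2323, 1574, 1958 and 1412. Of the 6 past the filter, 1 was at least 2-fold higher in each KA comparison, against 4.91% and 5.66%. It was the receptor gene Kdr at 462, 256, 122 and 78. The junction gene Cldn5, at 597, 420, 717 and 577, and the receptor gene Flt1, at 158, 124, 181 and 104, were highest on the NAP array. The sums of 5 further lists were not highest on the KA+NAP array. The 5 oligodendrocyte precursor markers on the array summed to 2188, 2069, 2533 and 2271, the 8 neural progenitor markers to 2955, 2945, 3872 and 3885, and the 8 neuron markers, all past the filter, to 20508, 19951, 24472 and 25880. The 8 astrocyte markers summed to 23861, 23287, 30246 and 32105, and the 8 pericyte and fibroblast markers to 1150, 835, 1600 and 997. The progenitor marker Eomes was listed at 0 on the KA+NAP array and no other marker was at 0. All 8 lymphocyte markers were dim and summed to 182, 90, 85 and 103, highest on the KA+NAP array. Without Cd8a they summed to 110, 75, 83 and 102, with the KA+NAP and PBS arrays close together. The haemoglobin gene Hbb stood at 1549, 186, 1430 and 5, with high values on the KA+NAP and NAP arrays and almost none on the PBS array. The part of these cell types and of blood RNA in the cell cycle values was not tested.

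**Figure D5:**
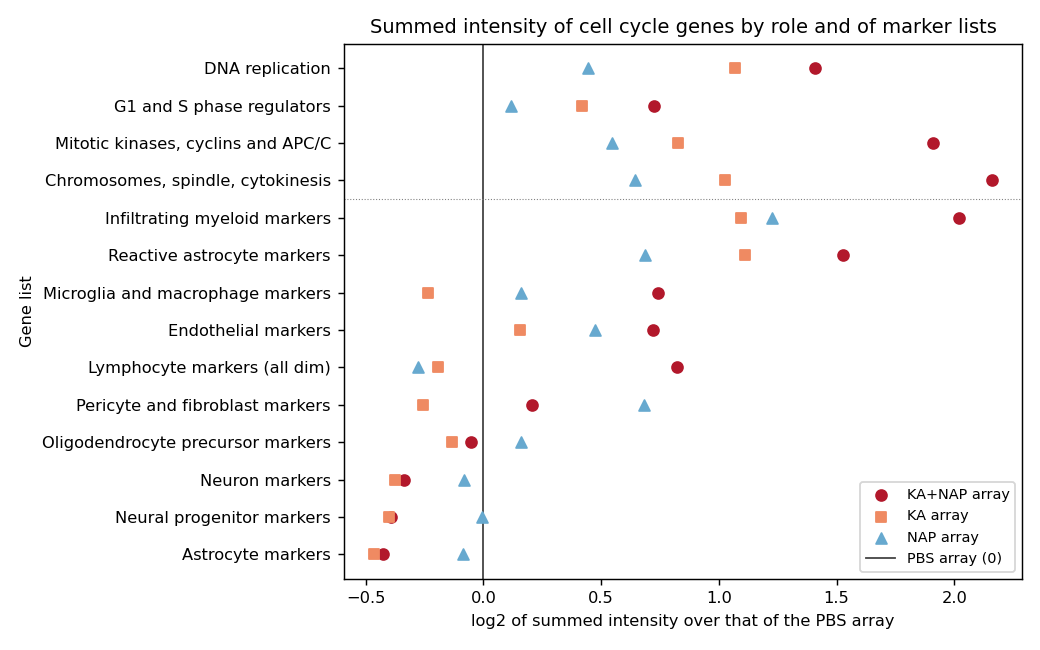
Summed intensity of the cell cycle genes by role (4 upper rows) and of marker lists (lower rows) on the KA+NAP, KA and NAP arrays, as log2 of the ratio to the PBS array, which is the line at 0. The red blood cell list is not drawn because its PBS sum was 8. The infiltrating myeloid and reactive astrocyte lists lie right of 0 on all 3 arrays like the cell cycle genes, while the neuron, neural progenitor and astrocyte lists lie at or left of it.

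Median intensities were 65 on the KA+NAP array, 61 on the KA array, 61 on the NAP array and 58 on the PBS array. The highest and the lowest were on the same arrays as for most cell cycle genes, and median centring was among the alternatives below. The mean was 250 on every array after removal of 2% of values at each end. The 3′ to 5′ ratio of the GAPDH control probe sets was 1.56 on the KA+NAP array, 1.31 on the KA array, 1.40 on the NAP array and 1.45 on the PBS array. For beta-actin the ratio was 15.5 on the KA+NAP array, 11.4 on the KA array, 7.92 on the NAP array and 14.1 on the PBS array. Both ratios were highest on the KA+NAP array and next highest on the PBS array. The part of RNA quality in the cell cycle values was not tested.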

How the data were processed

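Per the labels' protocols, the samples were extracted together, and a start of 500 ng total RNA was amplified in the Affymetrix 2-cycle procedure to biotin-labelled cRNA, which favours 3′ ends. Per the submitters' processing notes, the deposited intensities were computed with MAS5. Its settings, its detection calls and a genome build were not found in these sources. The deposited intensity values were whole linear numbers already scaled to one level. The number of arrays, 1 per group, limits the precision.

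From these, log2(intensity + 10) was taken, which understates differences of dim genes. Of 31099 probe sets, 20832 had 1 gene symbol in the platform annotation, 436 had several and were not used, and 9780 were not listed. Current symbols (GRCr8 gene table) were found for 20764. A gene took its brightest probe set. The filter kept genes with a mean intensity above 62.75. Calls used 2-fold, and no test was run. The steps were tested on simulated arrays with known changes.

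The genes and lists were chosen with earlier results of these data known. Every cell cycle gene was reported. Other pathway genes were named when at least 2-fold apart in both KA comparisons or fixed by name (Cdkn1a, Cdkn1b, Cdkn1c, Foxm1, E2f1, Mybl2, Ccnd3 and Cdk6). Ccne2, Gins1, Prim1 and the single markers were picked after their values were seen. Python 3.11.15, numpy 2.4.6 and pandas 2.3.3 were used. Alternatives covered the pseudocount, filter, probe set rule, scaling, fold and control array.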

Additional observations from a re-analysis of the deposited data

Results flagged for a closer look

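For 5 of the cell cycle and other pathway genes named, markers left aside, the difference of KA+NAP minus NAP and that of KA minus PBS ran in opposite directions. Each rests on 1 array per group, and the difference between them was not tested. The excess of the first over the second was 1.37 on the log2 scale for Plk1 (0.80 and −0.57) and 1.18 for Aurkb (1.08 and −0.11). Both genes are dim. The excess was 0.45 for the dim Foxm1 (0.38 and −0.07). It was −1.21 for Cdkn1c (−0.24 and 0.97), whose PBS intensity of 240 was the lowest of its values, and −0.23 for Cdkn1b (−0.14 and 0.09), where both differences were small.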

How the results depend on the processing

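Counts of cell cycle genes at least 2-fold higher past the filter were 12 in KA minus PBS, 13 in KA+NAP minus NAP, 5 in KA+NAP minus KA and 1 in NAP minus PBS. The shares of all genes past the filter were 4.91%, 5.66%, 1.52% and 1.05%. In that order the counts were 2, 1, 0 and 0 of 6 genes with the threshold raised to the 75th percentile, against 3.57%, 3.68%, 0.631% and 0.687% of all genes kept. They were 6, 4, 0 and 0 of 14 with the filter on the NAP and PBS arrays, against 3.68%, 4.15%, 1.22% and 0.976%. With no filter they were 18, 25, 12 and 3 of 42, against 5.31%, 6.34%, 2.6% and 1.89% of all genes. At a fold of 1.5 they were 16, 20, 11 and 6, against 12.4%, 13.8%, 6.53% and 3.96%, so the share over all genes rose as well. With a pseudocount of 50 they were 4, 10, 2 and 0, against 3.14%, 3.65%, 0.748% and 0.506%. NAP minus PBS gave 4 with a pseudocount of 1, 0 with median centring and 2 with quantile normalization, against 1.26%, 0.885% and 0.948% of all genes. Under these settings the other counts stayed within 1.5 times. With the other control array, an alternative chosen after seeing the data, KA minus PBS gave 1 gene, against 3.18% of all genes, and a median of 0.55. There KA+NAP minus NAP gave 18, against 7.41%. The 75th percentile filter moved the medians to 0.31 in KA+NAP minus KA and 0.23 in NAP minus PBS. No median changed sign under these alternatives. Of 678 values of single genes under the alternatives, 625 kept their call. A change of filter leaves a gene's own difference as it is, so those settings could not move a call. With the other control array 16 values moved and 30 kept their call. With a pseudocount of 50, 15 moved and 77 kept it. No paired analysis was possible because each group had 1 array, and for the same reason no replicate could be left out. Probe sets near or under the threshold limit what the dim genes can show, and detection calls were not used here.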
